A study of Mus musculus with 28 samples.

Results

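Mdm2, Frs2, Yeats4, Cpm, Cct2, Cnot2, Cpsf6 and Rap1b lie together on mouse chromosome 10 between 115.7 and 117.5 Mb, here called the Mdm2 block, and Arid5b and Rtkn2 lie between 67.4 and 68.0 Mb, the Arid5b block (build mm9, which is NCBIM37). They are 10 of 22228 protein-coding genes. They were chosen by the width and score of called regions of histone marks at day 35, above all H3K4me3, which ran together over these stretches. All histone values below are therefore descriptions with no test, and with 1 library per mark and day they have no replicate check. In all, 23 protein-coding genes overlap the Mdm2 block and 3 the Arid5b block. The block limits are round numbers. At the first limit of the Mdm2 block, H3K4me3 at day 35 covered 0% of Ptprr, which lies mostly outside the block. It covered 33.9% of Ptprb, just inside. Just outside the blocks it covered 0% of Mdm1 and 1.71% of Zfp365.

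The cells were IDG-SW3, a single mouse line that passes from an osteoblast-like to an osteocyte-like state in culture. The line comes from a mouse with a temperature-sensitive viral T antigen under an interferon-inducible promoter and a green reporter under Dmp1 control. Cells were expanded at 33 °C with interferon gamma, then kept at 37 °C without it, in medium with ascorbic acid and β-glycerol phosphate. Chromatin immunoprecipitation and sequencing was done for 9 histone marks, once at each of day 3 and day 35. At day 35 it was also done for VDR, the receptor of vitamin D, and for RXR, with which it pairs. Cells had been given vehicle, or 1,25(OH)2D3 (1,25D3), the hormonal form of vitamin D, at 100 nM for 3 h, with 2 libraries per factor and treatment. All libraries come from the same line, and the 2 input libraries, with no antibody, were not analysed here. Each list held between 291 and 100123 called regions, and how many reads lie behind each list is not stated by the labels or files. The labelled cell type was checked on 14 osteoblast and osteocyte genes: H3K27Ac covered a median of 46.4% of them at day 3 and 84.2% at day 35. Not all followed the median: Sost had 6.56% and 6.29% and Phex 11.6% and 12.9%. The defining genes of endothelium, Cdh5, Kdr and Tek, had a median of 1.9% and 1.5%. Medians were 1.69% and 3.07% for 4 muscle genes and 0% at both days for 3 neuron genes. They were also higher at day 35 for 5 adipocyte genes, 3.96% and 14.9%, and for 6 blood and osteoclast genes, 7.73% and 13.7%. In bulk chromatin a mark in more cells and more of it per cell cannot be told apart. Whether input was subtracted is not stated, and input signal over the blocks was not looked at. A difference in a mark and a difference in input signal therefore cannot be told apart either.

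H3K4me3 normally marks the start sites of genes in narrow regions. H3K27Ac, H3K9Ac and H4K5Ac are acetyl marks of active promoters and enhancers, and H3K4me1 and H3K4me2 lie at enhancers and around promoters. H4K20me1 and H3K36me3 lie along the bodies of transcribed genes, and H3K9me3 marks repressed chromatin. Of the members, Mdm2 encodes the ubiquitin ligase that removes p53, Frs2 the adaptor that carries signals from FGF receptors, and Rap1b a small GTPase of cell adhesion. Cct2 is a subunit of the chaperonin that folds actin and tubulin, Cnot2 a subunit of the CCR4-NOT complex that shortens mRNA tails, and Cpsf6 a factor in choosing the cleavage site of mRNA 3′ ends. Yeats4 reads acetylated histones, Cpm is a membrane carboxypeptidase, and Arid5b is a DNA-binding regulator known for roles in fat and cartilage cells.

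At day 3 H3K4me3 was narrow at these genes, and at day 35 called regions ran through all 10 of them. Coverage, the share of a gene and of 5 kb to each side that lies under called regions, had a median of 8.62% at day 3 and 100% at day 35. All 10 members were higher by over 10 percentage points, against 0.157% of all genes, and none was lower, against 2.15%. This is the contrast that chose the stretches, so nothing is read from that count. Of the 35 genes called higher in the genome, 25 overlapped the 2 blocks.

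**Figure D1:**
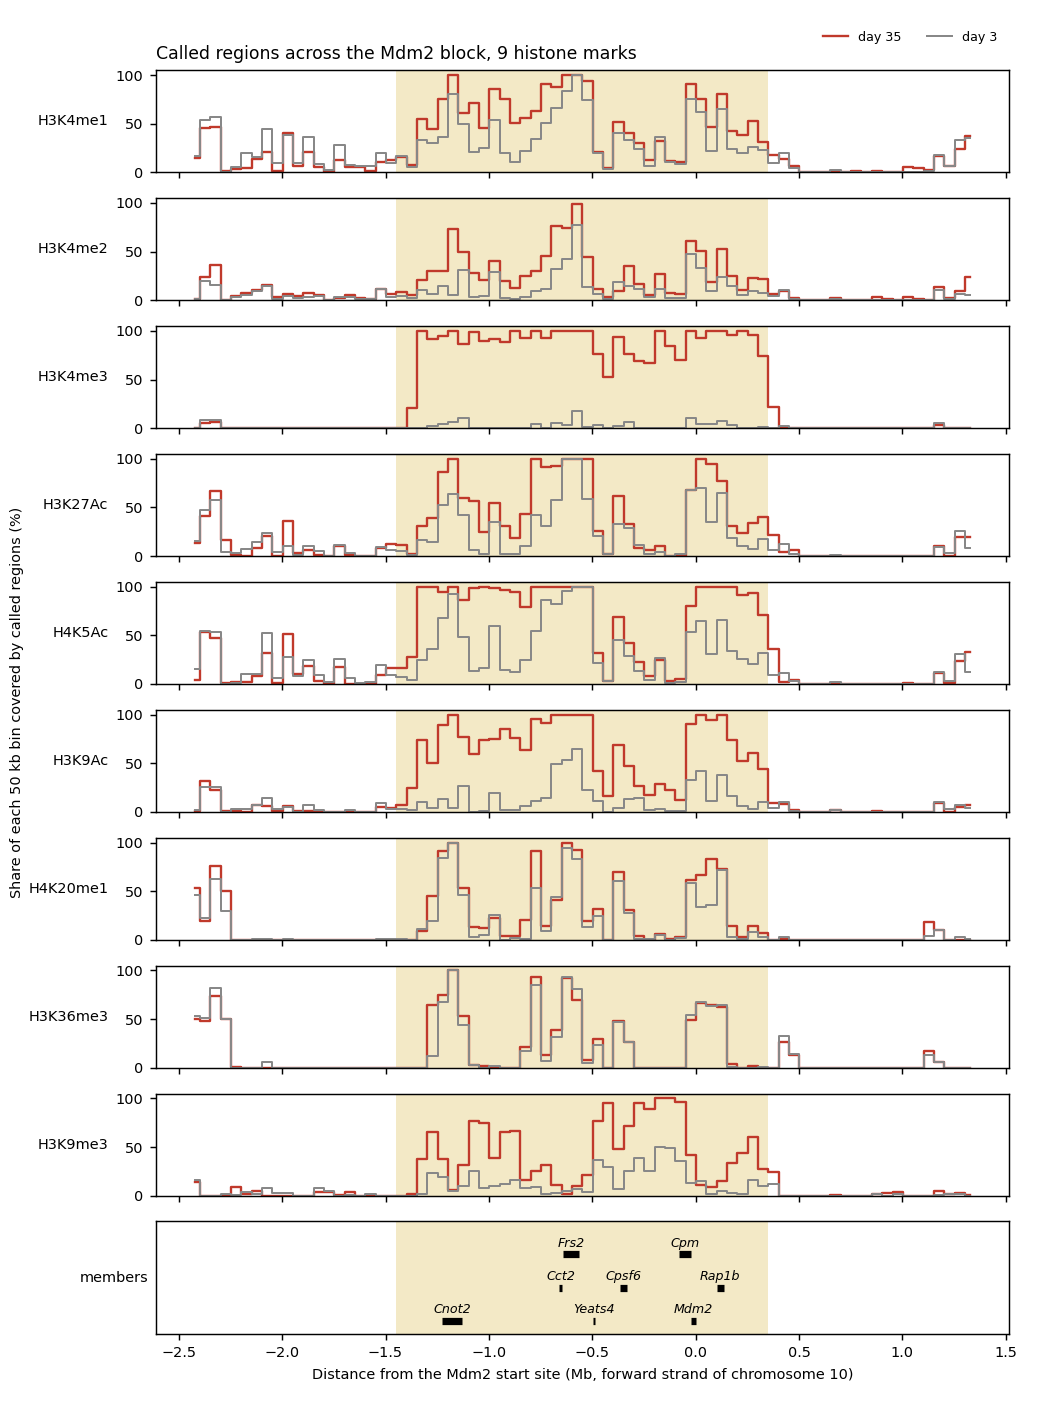
Share of each 50 kb bin covered by called regions (vertical axis, percent) against the distance from the Mdm2 start site (horizontal axis, Mb), for 9 marks at day 3 (grey) and day 35 (red), 1 library each; shading is the Mdm2 block and black bars are the 8 members there. H3K4me3 covered 2.67% of the block at day 3 and 86.0% at day 35, and both lines fall to near 0 on either side.

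Mdm2 (117125944 to 117147814, minus strand) had its day-3 H3K4me3 region at the start site, 4.97 kb wide with a score of 3928.4, the 15th highest of 11283. The score is the authors' own value for a region and is compared only within a list. At day 35 the start site lay in a region 70.4 kb wide with a score of 5498.5, the 11th highest of 9360. Per kb of width the score was 790 at day 3, against 234 for its list, and 78.2 at day 35, against 100 for its list. The day-35 region of Mdm2 was thus wide and, per kb, below the mean of its list, which is total score over total width. By rank of score per kb it was near the middle of the list, at percentile 50.21.

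Frs2 (116507185 to 116585530), Cct2 (116488054 to 116500870) and Yeats4 (116652198 to 116661563), all on the minus strand, had 3 separate start-site regions at day 3, of 7.84, 2.05 and 1.67 kb. At day 35 all 3 genes lay inside 1 region of 271 kb, from 116411279 to 116681935, with a score of 18844.9, rank 2 of its list. Coverage of Frs2 went from 10.0% to 100%, of Cct2 from 18.6% to 100% and of Yeats4 from 8.63% to 100%. The 3 regions of day 3 were thus replaced by a single region in the list of day 35.

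Cnot2 (115922217 to 116018567, minus strand) had a start-site region of 3.97 kb at day 3 and lay in one of 139 kb at day 35, rank 4. Rap1b (117251527 to 117282991, minus strand) went from 3.57 kb to 132 kb, rank 7. Cpsf6 (116781724 to 116814029, minus strand) went from 2.77 kb to 62.3 kb, rank 14. For all 3 the day-35 score per kb, 90.2, 73.5 and 78.1, was below the mean of the list. By rank these day-35 values were near the middle of the list, at percentiles 58.7, 46.68 and 50.18. Their day-3 values of 249, 241 and 347 were above the mean of the day-3 list.

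Cpm (117066556 to 117124408, plus strand), which ends next to the end of Mdm2, had no H3K4me3 region at day 3. At day 35 H3K4me3 covered 84.7% of it, and its start site lay in a region 11.5 kb wide with a score of 321.0, or 28 per kb. Cpm was also the member with the least H3K27Ac at both days, 21.2% and 19.6%.

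Arid5b (67558341 to 67741474, minus strand) had a 4.36 kb region at its start site at day 3, with a score of 1388.5, rank 319. At day 35 its start site lay in a region of 165 kb with a score of 10834.8, and most of its body in another of 249 kb, from 67457129 to 67706073, with a score of 16876.8, rank 3. The second region also held the end of Rtkn2 (67442318 to 67522488, plus strand). Coverage of Arid5b went from 6.28% to 98.4% and of Rtkn2 from 4.07% to 78.0%. Rtkn2 differed from the rest at its start: H3K4me3 covered 18.8% of the 4 kb around its start site at day 3 and 0% at day 35, since that site lies outside the first edge of the wide region.

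**Figure D2:**
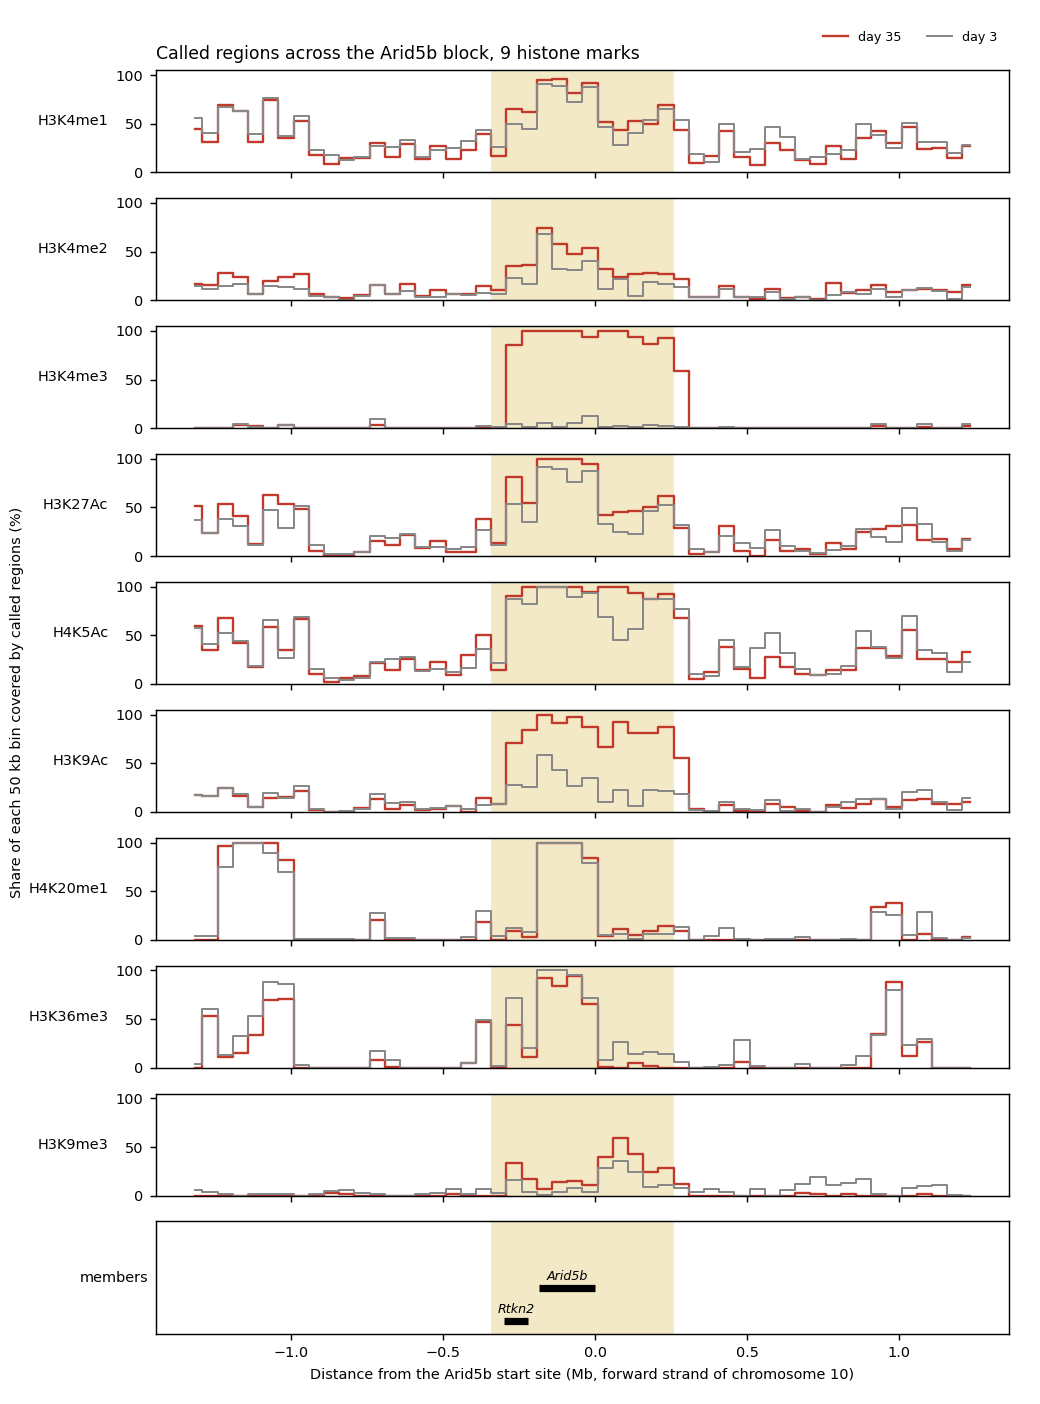
The same plot for the Arid5b block: share of each 50 kb bin covered (percent) against the distance from the Arid5b start site (Mb), at day 3 (grey) and day 35 (red), with the block shaded and its 2 members as black bars. H3K4me3 covered 3.41% of the block at day 3 and 87.7% at day 35, while H4K20me1 lay over Arid5b at both days.

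At day 3 H3K4me3 and H3K9Ac already covered most of the bases near the start sites of most members. The exceptions were Cpm and Rtkn2 for both marks and Yeats4 for H3K4me3, at 41.8%. Within 2 kb of the start site, median H3K4me3 coverage of the members was 71.2% at day 3 and 100% at day 35, with 6 members higher and 1, Rtkn2, lower. For H3K9Ac the medians were 94.5% and 100%, with 2 members higher, Yeats4 and Cpsf6. For these 2 marks the whole-gene differences thus lay mostly away from the start sites. H4K20me1 had medians of 44.8% and 89.8% there, with 6 members higher, and H3K9me3 0% and 23.5%, with 3 higher. The share of all genes called is not given for this window, so nothing is read from these counts.

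H3K9Ac, an acetyl mark of promoters, gave the next largest difference. Its median coverage of the members was 36.6% at day 3 and 100% at day 35. All 10 were higher, against 7.09% of all genes, and none lower, against 3.65%. The smallest differences were at Cct2, with 65.6% and 100%, and at Cpm, with 6.46% and 43.6%. The largest was at Cnot2, with 17.6% and 100%.

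H3K27Ac and H4K5Ac, the other acetyl marks, already covered most of the members at day 3. H3K27Ac had medians of 72.1% and 96.7%, with 7 members higher, against 17.8% of all genes, and none lower, against 5.82%. Mdm2 and Frs2 were at 100% at both days, so no rise could be measured there. H4K5Ac had medians of 80.4% and 99.2%, with 5 members higher, against 13.4% of all genes, and none lower, against 6.65%. Cct2 was at 100% for H4K5Ac at both days.

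H3K4me1 and H3K4me2, marks of enhancers and promoter flanks, were also wider at day 35. H3K4me1 had medians of 72.7% and 89.1%, with 6 members higher, against 8.04% of all genes, and none lower, against 9.94%. H3K4me2 had medians of 31.9% and 57.9%, with 8 members higher, against 9.17%, and none lower, against 0.558%. Cct2 had the largest H3K4me2 difference of the members, from 44.3% to 100%, and Cpsf6 the smallest, from 36.3% to 39.7%.

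**Figure D3:**
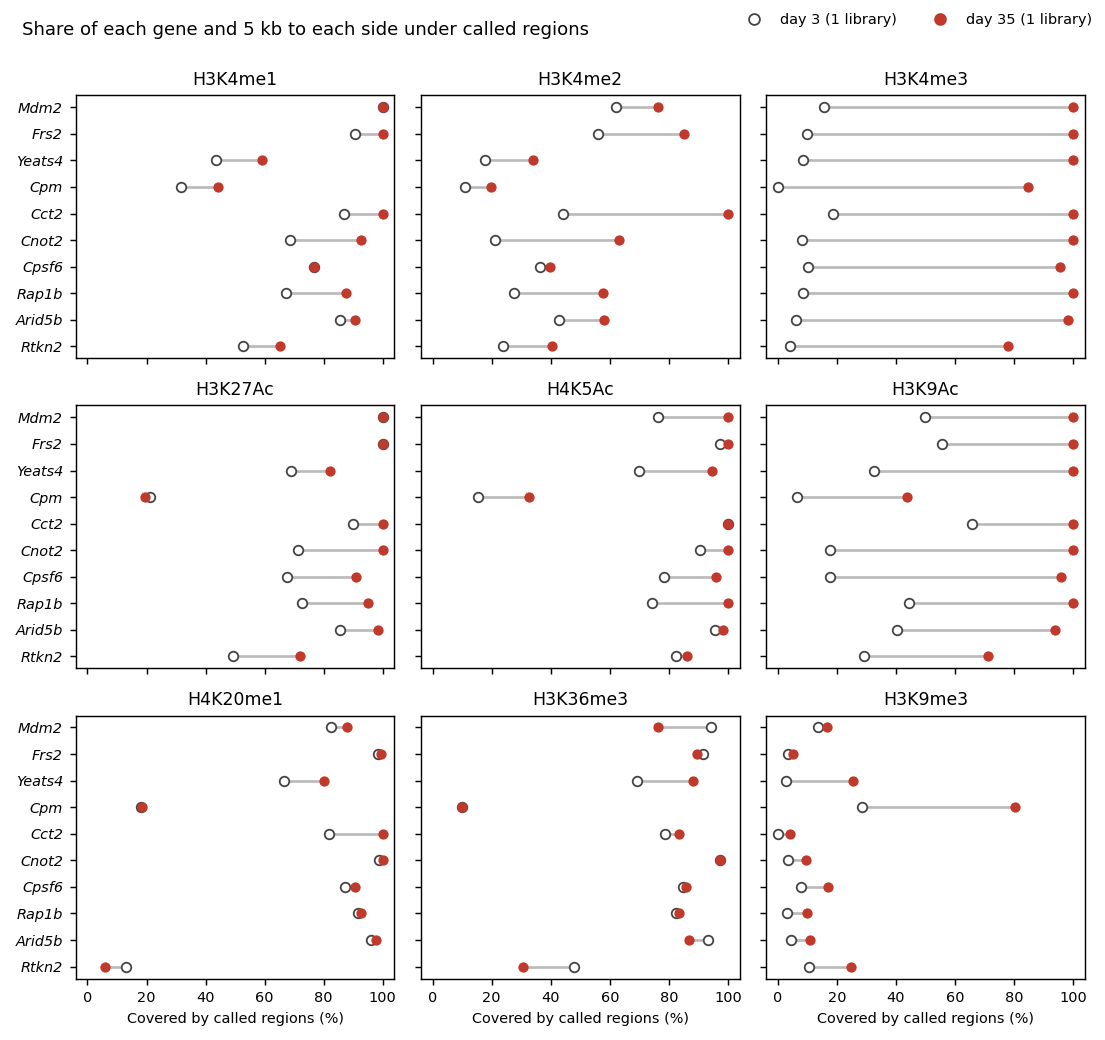
Coverage of each of the 10 members with 5 kb to each side (horizontal axis, percent) at day 3 (open circles) and day 35 (red circles), 1 library each, in a panel per mark. H3K4me3 and H3K9Ac were higher at all 10 members, whereas H4K20me1 and H3K36me3 stayed within 20 points of their day-3 values.

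The marks of transcribed gene bodies differed least in coverage. H4K20me1 had medians of 84.8% and 91.7%, with 2 members higher, Yeats4 and Cct2, against 17.9% of all genes, and none lower, against 6.14%. H3K36me3 had medians of 83.7% and 84.7%, with 1 member higher, Yeats4, against 10.7%, and 2 lower, Mdm2 and Rtkn2, against 9.86%. Mdm2 went from 94.3% to 76.4% for H3K36me3 and Rtkn2 from 47.8% to 30.7%. Cnot2 was nearly filled by H3K36me3 at both days, 97.3% and 97.4%. Cpm had little of either at both days, with H3K36me3 over 9.81% and 9.78% and H4K20me1 over 18.1% and 18.6%, and Rtkn2 had H4K20me1 over 13% and 5.93%.

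H3K9me3, the mark of repressed chromatin, was also wider in the blocks at day 35. It had medians of 3.89% and 13.9% at the members, with 3 higher, Yeats4, Cpm and Rtkn2, against 4.21% of all genes, and none lower, against 4.16%. At Cpm coverage was 28.5% at day 3 and 80.3% at day 35. The day-35 region over Cpm was 170 kb wide, from 116927497 to 117097081, with a score of 25863, the highest of the 45063 regions in its list. In the 253 kb between Cpsf6 and Cpm (116814030 to 117066555) H3K9me3 covered 39.3% at day 3 and 96.1% at day 35, H3K4me3 0.331% and 77.5%, H3K27Ac 4.75% and 5.73%, and H3K36me3 0% at both.

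H3K9me3 and H3K4me3, which usually mark different chromatin, shared bases at day 35, when H3K4me3 covered most of both blocks. Of the bases under H3K9me3 in the Mdm2 block, 2.70% were also under H3K4me3 at day 3 and 86.2% at day 35, beside 2.67% and 86.0% of the whole block, so the overlap was near the share of the block itself. In the Arid5b block the shares were 1.5% and 99%, beside 3.41% and 87.7% of the whole block. Of the H3K9me3 bases of the Mdm2 block, 15.1% and 24.6% were also under H3K27Ac, which covered 28.9% and 48.9% of the whole block. Bases under at least 5 of the 9 marks went from 21.0% to 53.5% of the Mdm2 block and from 38.3% to 63.5% of the Arid5b block.

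Genes outside the blocks gave the local background. The 3 nearest protein-coding genes on each side were Lgr5, Tspan8, 4933416C03Rik, Mdm1, Il22 and Iltifb for the Mdm2 block. For the Arid5b block they were Ado, Gm10797, Zfp365, Tmem26, Rhobtb1 and A930033H14Rik. None of these 12 was called higher for H3K4me3, H3K9Ac or H3K9me3. Around the Mdm2 block none was higher for any of the 9 marks, and 1, Tspan8, was lower, for H3K4me1. Il22 and Iltifb there were at 0% for every mark at both days. So was 4933416C03Rik, apart from H3K4me1 over 5.39% at day 3. These genes without called regions are a weak background. Around the Arid5b block 2 were higher for H3K27Ac and 1 for H4K5Ac, while 1 was lower for H3K27Ac, 1 for H3K9Ac, 2 for H4K20me1 and 2 for H3K36me3. Mdm1, which starts 78.8 kb past the block limit and carried H3K36me3 over 63.1% and 53.4%, had H3K4me3 over 2.68% at day 3 and 0% at day 35. Zfp365, 24.6 kb before the Arid5b block, had H3K27Ac over 27.2% and 40.5% and H3K4me3 over 2.72% and 1.71%. In the 1 Mb on each side of the Mdm2 block H3K4me3 covered 0.597% at day 3 and 0.924% at day 35, H3K9Ac 3.89% and then 3.31%, and H3K9me3 1.81% and then 2.18%.

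The other genes inside the blocks were covered as well. Of 15 others in the Mdm2 block, 14 were higher for H3K4me3, 12 for H3K9Ac, 9 for H3K27Ac and 10 for H3K9me3. Nup107, which encodes a nuclear pore protein, went from 4.79% to 100% for H3K4me3 and differed by less than 1 point for H3K9me3. The lysozyme genes Lyz1 and Lyz2, known from macrophages, went from 28.4% to 100% and from 9.39% to 83.6% for H3K9me3, with H3K4me3 over 11.8% and 40.4% at day 35. In the Arid5b block 1700040L02Rik went from 2.29% to 91.4% for H3K4me3. The exception for H3K4me3 was Ptprr, at 0% on both days, whose body lies mostly outside the block and ends before the first H3K4me3 edge.

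Across the genome such wide H3K4me3 was rare. Of 53085 bins of 50 kb, 49 were more than 50% covered by H3K4me3 at day 35: 34 of the 36 bins of the Mdm2 block, 11 of the 12 of the Arid5b block and 4 elsewhere. At day 3 there were 2 such bins, both elsewhere. Regions of at least 50 kb numbered 15 at day 35, with 11 in the Mdm2 block and 3 in the Arid5b block, and 1 at day 3. Among 9689 genes longer than 20 kb, 15 were more than 75% covered at day 35, with 14 in the blocks; the other was Sfi1 on chromosome 11, at 94.3% and 99.7%. For H3K36me3 the blocks held 3 of 1028 regions that wide at day 35, and for H4K20me1 5 lay in the blocks and 993 elsewhere.

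Some edges of the wide regions were shared between marks and others were not. Over regions of at least 20 kb at day 35, the first H3K4me3 edge of the Mdm2 block was at 115789494 and the first H4K5Ac edge at 115789439, and the last edges were at 117507761 and 117504496. The other 7 marks began later and ended earlier: their first edges included 115813135 for H3K9Ac, 115907429 for H3K4me1 and 116076663 for H3K9me3, and the last H3K9me3 edge was at 117097081. In the Arid5b block H3K4me3 began at 67457129, H3K27Ac at 67456733 and H4K5Ac at 67456179. Within Arid5b, regions of 4 marks ended between 67706073 and 67706401 and regions of 5 marks began between 67709123 and 67709229. The interruption of 2.72 kb between them has no undetermined bases in the reference, and neither does the rest of the blocks.

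By rank, regions of the blocks led the day-35 lists. The highest-scoring region of the list lay in the Mdm2 block for 7 of 9 marks, and the highest or the second highest for 9 of 9. At day 3 this was so for 0 marks. The Arid5b block held a region of rank 2 or better for 3 marks at day 35 and for 0 at day 3. The first-ranked region lay at Frs2 for H3K4me2, at Frs2 and Cct2 for H3K4me1, at Frs2, Cct2 and Yeats4 for H3K27Ac, H4K5Ac and H3K9Ac, and at Cpm for H3K9me3. Score tracked width within every list (Spearman correlation over regions between 0.87 and 0.97), so a high rank and a wide region are nearly the same measurement.

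Scores per kb separated the marks into 2 kinds. Relative to the mean per kb of its own list, the Mdm2 block stood at 1.37 at day 3 and 2.84 at day 35 for H3K4me1, at 1.04 and 2.18 for H3K27Ac and at 1.06 and 2.31 for H4K5Ac. H4K20me1 stood at 2.10 and 4.59, H3K36me3 at 1.96 and 4.16, and H3K9me3 at 0.906 and 2.50. H3K4me3 stood at 0.963 and 0.585, and H3K9Ac at 0.957 and 0.872. The marks that covered little more of the block at day 35, H4K20me1 and H3K36me3, thus had the highest relative score per kb. The 2 marks that spread most, H3K4me3 and H3K9Ac, had block totals below their list. Single H3K9Ac regions of day 35 differed, against 115 per kb for the list. Those at Mdm2, Frs2 and Rap1b had 198, 168 and 129, and those at Cpsf6 and Cnot2 had 113 and 92.3. Each block value includes the parts of regions that pass a block limit. The lists share no stated scale, so the block ratios describe places within a list.

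**Figure D4:**
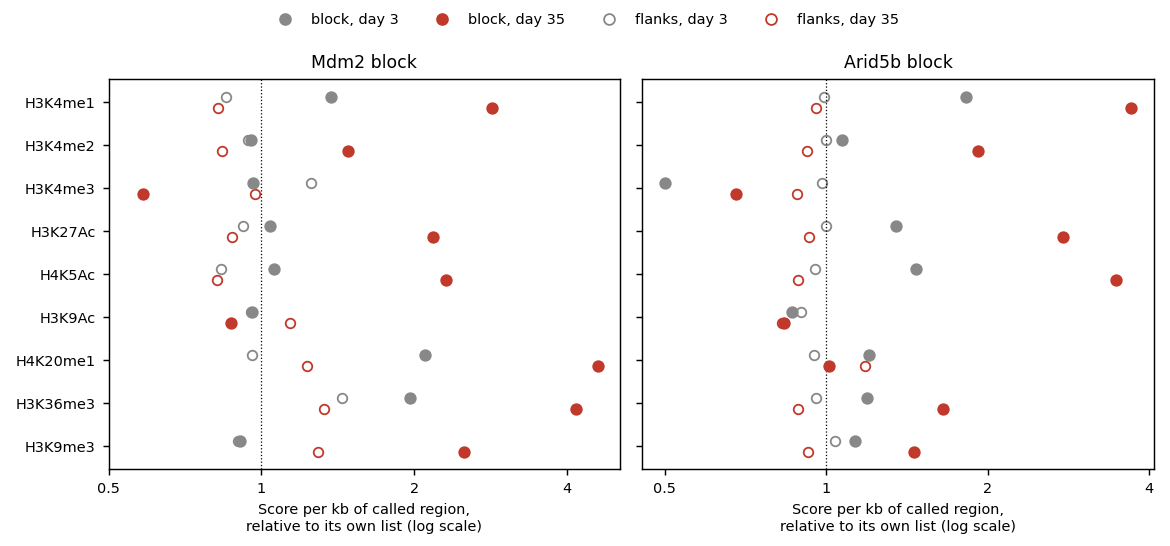
Score per kb of called region in each block (filled circles) and in the 1 Mb to each side (open circles), relative to the mean of the same list (horizontal axis, log scale; dotted line at 1), at day 3 (grey) and day 35 (red), 1 library each. In the Mdm2 block 7 marks lie to the right of 1 at day 35, up to 4.59 for H4K20me1, and H3K4me3 and H3K9Ac lie to the left.

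In the Arid5b block the pattern differed for gene-body marks and for H3K4me3. H3K4me1 stood at 1.82 and 3.70, H3K27Ac at 1.35 and 2.77, H4K5Ac at 1.47 and 3.47, H3K36me3 at 1.19 and 1.65 and H4K20me1 at 1.20 and 1.01. H3K4me3 stood at 0.501 and 0.678, higher at day 35 where it was lower in the Mdm2 block, and H3K9Ac at 0.863 and 0.835. No test of these differences is possible with 1 library a day.

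Genes with the most similar coverage over the 18 histone lists were sought outside the blocks, by the mean absolute difference from the members' median. For the Mdm2 block they were Kctd10, 1500002C15Rik, Isg20l2, Tmem2 and Surf2, at 12.5 to 14.4 points, where the members themselves had a median difference of 9.89. For the Arid5b block they were Sbno2, Dut, Plekho1, Pdxp and Sh3bp1, at 12 to 12.7 points, nearer than the members themselves at 14.9. None of the 10 had H3K4me3 over more than 18.3% at day 35.

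Mdm2 is the main negative regulator of p53, so the other genes of that pathway were described. None of 23 listed genes was higher for H3K4me3, against 0.157% of all genes, and 2 were lower, against 2.15%. For H3K27Ac 10 were higher, against 17.8% of all genes, and 2 lower, against 5.82%. By a rule that asks for H3K27Ac higher by over 10 points and H3K9Ac and H4K5Ac higher by any amount, 5 genes were named, against 11.5% of all genes: Usp7, a deubiquitinase of Mdm2 and p53, Cdkn1a, the p21 cell cycle inhibitor, and Apaf1, Gadd45a and Aen. At Usp7 the H3K9Ac values were 6.99% and 7.83% and at Cdkn1a 39.5% and 43.3%, both under 10 points apart. By the same rule for lower values 2 were named, against 4.11% of all genes: Trp53, which encodes p53, and the death receptor gene Fas. At Cdkn1a H3K27Ac covered 44.6% and 76.4%, and at Trp53 50.7% and 31.4%. H3K9me3 over the list had a median of 0% at both days.

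VDR binds DNA as a pair with RXR, and 1,25D3 is its ligand. No VDR peak lay in either block with vehicle, and 3 lay there in each 1,25D3 library. RXR had 14 and 6 peaks in the blocks with vehicle and 19 and 11 with 1,25D3. Means were 10.0 ± 5.66 and 15.0 ± 5.66 (SD, n = 2 each). An exact permutation test (two-sided, on log2(number + 1)) gave a p of 0.333 for VDR and 0.667 for RXR. With 2 libraries against 2 the smallest possible p is 0.333, so no difference could pass a threshold. Nothing in the labels says that replicates came from separate cultures, so p measures the spread between libraries, which may be technical. The 1,25D3 lists were also longer genome-wide, with 1618 and 1333 VDR peaks against 291 and 342. Of each VDR list the peaks in the blocks made up 0% in both vehicle libraries and 0.185% and 0.225% with 1,25D3. Of each RXR list they made up 0.204% and 0.147% with vehicle and 0.184% and 0.144% with 1,25D3, so the RXR shares of the treatments overlapped.

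The strongest VDR site of the blocks was in an intron of Arid5b, 145 kb downstream of its start (67596617 to 67596936). Its VDR scores were 75.5 and 108.2 with 1,25D3, ranks 54 and 35, and RXR had 23.9 and 23.1 there with 1,25D3. None of the 4 vehicle libraries had a peak at it. The second VDR site was 4.57 kb upstream of the Arid5b start (67745878 to 67746213), with VDR scores of 19.8 and 22.8 and RXR scores of 18.9 and 18.7, again with 1,25D3 only. The third was in an intron of Best3 (116458128 to 116458444), within 50 kb of Cct2 and Frs2, with VDR scores of 26 and 34.1 and an RXR score of 18.7 in 1 of the 2 1,25D3 libraries. All 3 sites lay under H3K27Ac at both days.

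These 3 sites are shown because they are the VDR sites of the blocks. Each holds a match to the DR3 element, to which VDR and RXR bind. DR3 is a direct repeat of the nuclear receptor half-site with a spacer of 3 bases. The 200 bases around each centre are from the forward strand of NCBIM37, with the match in capitals. The search covered both strands and allowed 1 mismatch, and the first site matched with 0.
Arid5b intron, chr10:67596677-67596876: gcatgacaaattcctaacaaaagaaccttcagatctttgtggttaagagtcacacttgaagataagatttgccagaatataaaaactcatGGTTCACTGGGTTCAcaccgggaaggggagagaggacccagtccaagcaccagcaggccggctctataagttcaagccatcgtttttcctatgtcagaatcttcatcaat
Arid5b upstream, chr10:67745946-67746145: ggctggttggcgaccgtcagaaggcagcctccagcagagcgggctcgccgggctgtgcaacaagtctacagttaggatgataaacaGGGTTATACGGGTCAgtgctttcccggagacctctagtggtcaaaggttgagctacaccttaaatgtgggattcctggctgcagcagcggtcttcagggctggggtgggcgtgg
Best3 intron, chr10:116458186-116458385: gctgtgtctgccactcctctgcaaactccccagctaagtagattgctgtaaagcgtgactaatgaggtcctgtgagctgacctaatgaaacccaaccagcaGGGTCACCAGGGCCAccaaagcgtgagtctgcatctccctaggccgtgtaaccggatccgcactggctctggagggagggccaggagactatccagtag

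Of all 1218 VDR sites found in both 1,25D3 libraries, 40.1% held such a match in the same window, and of points 2 kb to either side of them 4.52% did. Of the 17 other sites of the blocks, which had RXR without VDR, 1 held a DR3 match, 26.4 kb upstream of Frs2, and 0 held a DR1 match (a spacer of 1 base). Among all 6783 RXR sites found in both 1,25D3 libraries, 11.0% held DR3 and 9.05% DR1, against 4.24% and 5.06% of the points around them. A match is a description of letters and not a binding site.

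**Figure D5:**
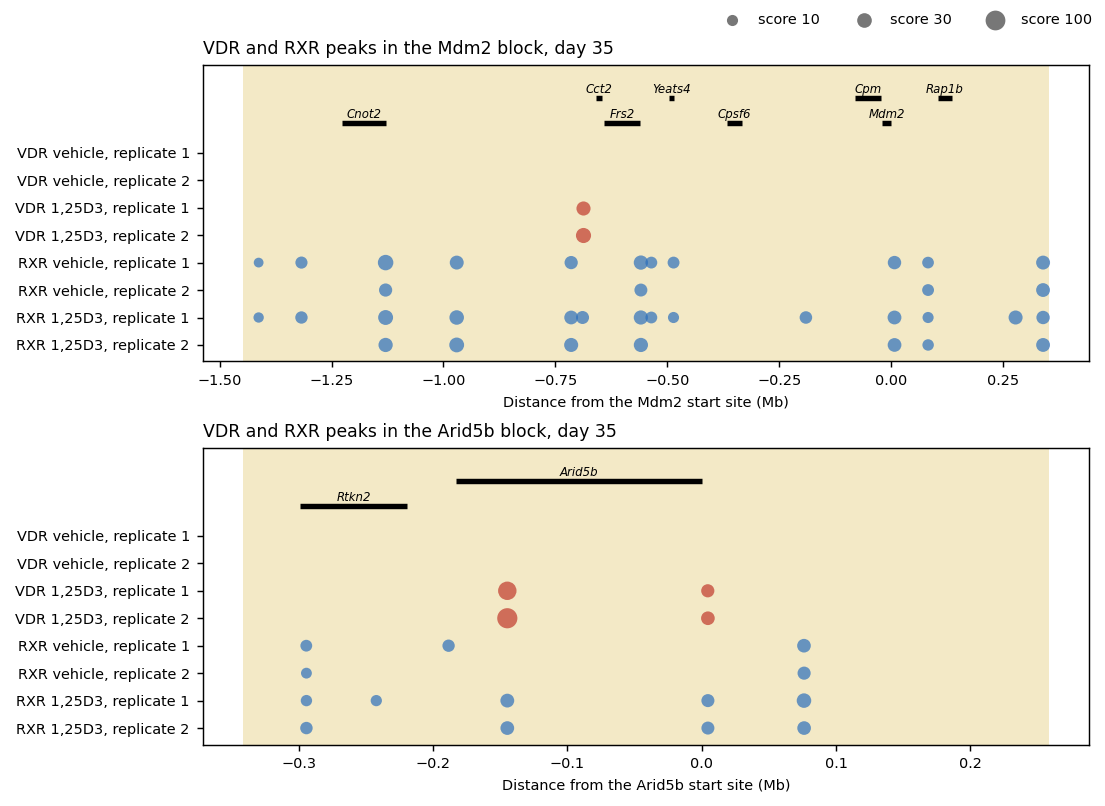
Peaks of VDR (red) and RXR (blue) in the 2 blocks by library (rows) against the distance from the Mdm2 or Arid5b start site (horizontal axis, Mb), with circle size following the authors' score and black bars for the members. VDR rows are empty with vehicle and hold 3 peaks each with 1,25D3, and RXR peaks recur at the same places across libraries.

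Several RXR peaks of the blocks lay near the starts of members, with vehicle as well as with 1,25D3. At the Cnot2 start (116018460 to 116018782, 0.055 kb upstream) RXR scores were 37.6 and 19.8 with vehicle and 32.3 and 27 with 1,25D3. At 3.04 kb upstream of Frs2 (116588410 to 116588733) they were 27.3 and 18.4, then 26.6 and 26.7. Both sites were called in all 4 RXR libraries, and scores of separate lists are not compared. At 7.06 kb upstream of Mdm2 (117154710 to 117155039) there was a peak in 1 of 2 vehicle libraries, at 21.2, and in both 1,25D3 libraries, at 23.9 and 23.3. This is the RXR site nearest to the Mdm2 start, and no VDR library had a peak at it. Its centre is shown as the member that names the block; it held neither DR3 nor DR1.
Mdm2 upstream, chr10:117154775-117154974: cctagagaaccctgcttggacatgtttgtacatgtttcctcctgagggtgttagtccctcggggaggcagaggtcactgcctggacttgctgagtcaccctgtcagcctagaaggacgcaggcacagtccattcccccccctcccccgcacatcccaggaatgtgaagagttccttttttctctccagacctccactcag

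Within 50 kb of the gene body, a VDR site of both libraries was found at 0 of 10 members with vehicle, against 5.05% of all genes, and at 3 with 1,25D3, Cct2, Frs2 and Arid5b, against 11.6%. Cct2 and Frs2 share the Best3 site. For RXR 4 members had a site with vehicle, Cnot2, Frs2, Rap1b and Rtkn2, against 19.7% of all genes. With 1,25D3 7 had one, against 31.9%: the same 4 and Cpm, Mdm2 and Arid5b. Cpsf6 had no peak of any library in that window. The neighbouring Mdm1 had RXR at 1 site with vehicle and 2 with 1,25D3, and Ado, outside the Arid5b block, had a VDR site with 1,25D3, so these peaks were not limited to the blocks.

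RXR peaks of the Arid5b block were sparser than those in the 1 Mb on each side in 4 of 4 libraries. They were at 5 and 3.33 per Mb against 8 and 7.5 with vehicle and at 8.33 and 6.67 against 10 and 9 with 1,25D3. By the same measure the Mdm2 block had 6.11 and 2.22 per Mb against 4.5 and 1.5 on its sides with vehicle. With 1,25D3 it had 7.78 and 3.89 against 4.5 and 3.5. The next comparison, with the rest of the genome, was made for the Mdm2 block only, so it does not set the 2 blocks apart. RXR peaks were denser in the Mdm2 block than in the rest of the genome by length in 4 of 4 libraries, at 2.36 and 1.44 times with vehicle and 2.00 and 1.35 times with 1,25D3. The mean log2 ratio was 0.74, at the smallest p that an exact sign-flip permutation test of 4 lists can give, which does not pass 0.05. Over all 8 VDR and RXR lists the mean log2 ratio was 0.24 (5 of 8 above 0, p = 0.328, exact two-sided sign-flip permutation test). The 2 VDR vehicle lists had 0 peaks where 0.197 and 0.232 were expected, so their ratios of -0.48 and -0.55 are set by the pseudocount of 0.5 and the mean over 8 lists says little. The lists come from the same line and share sites, so they are not independent samples of the block. The block was also chosen by day-35 histone regions of the same cells. All 20 VDR and RXR sites of the blocks lay under H3K4me1 and H3K27Ac at day 35. Nothing is therefore read from any p of the density comparisons, including those below 0.05. Against the 5 Mb on each side the mean over 8 lists was 0.37 with p = 0.0312, and with the higher-scoring 50% of each list it was 0.83 with p = 0.0391, both by the same exact test. Against the rest of chromosome 10 the mean was 0.06 over 8 lists (p = 0.648, the same exact permutation test) and 0.32 over the 4 RXR lists, so the ratio depended on the background.

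RXR peaks in the Mdm2 block had high scores within their lists, with a median percentile of 96.4 and 96.2 with vehicle and 95.6 and 97.8 with 1,25D3. Those in the 1 Mb on each side had medians of 36.3, 37.9, 49.6 and 45.8 in the same order. In the Arid5b block the medians were 91.4 and 72.3, then 95.1 and 95.4, over 2 to 5 peaks a library, against 49.8, 37.9, 62.9 and 57.9 on its sides. The block median was higher in each of the 8 pairs, but the libraries share many sites, so the pairs are not independent. The blocks were chosen by day-35 histone regions of the same cells, so nothing is tested by this. The lowest block median, 72.3, rests on 2 peaks at percentiles 48.14 and 96.53. Histone marks covered these places at both days. Of the 20 VDR and RXR sites of the blocks, 20 lay under H3K4me1 at day 3 and at day 35. For H3K27Ac the counts were 19 and 20, for H3K4me3 6 and 18, and for H3K9me3 0 and 1. At day 35 H3K4me3 covered 86.0% of the Mdm2 block and 87.7% of the Arid5b block, so its 18 sites were near the share of the blocks. In the same order H3K4me1 covered 54.3% and 64.5%, H3K27Ac 48.9% and 65.7%, and H3K9me3 45.4% and 24.4%. At day 3 the block shares were 36.4% and 57.9% for H3K4me1 and 28.9% and 52.1% for H3K27Ac. They were 2.67% and 3.41% for H3K4me3 and 14.6% and 12.3% for H3K9me3.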

How the data were processed

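Regions of 9 histone marks (18 lists, 1 library each) and peaks of VDR and RXR (8 lists, 2 libraries per arm) were taken as the authors deposited them. One mark is named H4K5Ac in the sample labels and H3K5Ac in their protocol; the sample labels are followed. Per the submitters' processing notes, Bowtie and HOMER and build mm9 were used; no version, depth or calling parameter is stated in the labels or files. The deposited score of each region was used only to rank and describe regions within its list. Genes were those of GENCODE M1 on NCBIM37; 0 regions passed a chromosome end. Coverage was the share of a gene and 5 kb to each side under regions, with a call at over 10 points; the calculation was tested on simulated data. Sites were merged from peaks sharing at least 1 bp. Exact permutation tests used log2(number + 1), and log2 ratios of density a pseudocount of 0.5. Python 3.11.15, numpy 2.4.6, pandas 2.3.3 and scipy 1.17.1 were used. The members, lists and motif search were chosen with earlier results of these data known. Named genes were the members, all other protein-coding genes overlapping a block, the 3 nearest genes past each edge, the 5 most similar genes per block, and p53 pathway genes with all 3 acetyl marks changed the same way. All 58 listed genes were found, Spi1 as Sfpi1. By the 3 acetyl marks together, 11.5% of all genes were higher and 4.11% lower. Higher were 6 of 14 osteoblast and osteocyte genes, 2 of 5 adipocyte and 3 of 6 blood and osteoclast genes. None of the muscle, endothelium and neuron genes was higher. Lower was 1 adipocyte gene, Pparg, and none of the other cell type lists. Alternatives were other gene windows, thresholds, flanks and limits, merged regions, scores per kb, the higher-scoring 50% of each list, other overlaps and distances, and single libraries. Sequences were read from NCBIM37.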

Additional observations from a re-analysis of the deposited data

How the results depend on the processing

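Of 254 recomputed values, 210 kept their direction, side of the threshold and size, 38 moved, 2 passed the threshold and 4 reversed. Shares of all genes are given only for the main window and threshold, so the member counts below have no background. H3K4me3 was higher at 10 members and H3K9Ac at 10 in every gene window tried except 2 kb around the start site. There 1 member was higher for H3K4me1, 3 for H3K4me2, 6 for H3K4me3, 1 for H3K27Ac, 1 for H4K5Ac, 2 for H3K9Ac, 6 for H4K20me1 and 0 for H3K36me3, and 1 was lower for H3K4me1, 1 for H3K4me3, 1 for H3K27Ac and 2 for H4K5Ac. At over 20 points 2 members were higher for H3K4me1, 4 for H3K4me2, 4 for H3K27Ac, 3 for H4K5Ac, 0 for H4K20me1 and 0 for H3K36me3. In the gene body alone 0 were higher for H4K20me1 and 0 for H3K36me3, with 1 lower for H3K36me3, and with 20 kb to each side 1 was higher for H4K20me1 and 7 for H3K9me3. In the Arid5b block at day 35, block minus flank was 96.4 points for H3K4me3 with limits 100 kb inwards, and for H4K20me1 34.2 with flanks of 500 kb and 35.7 with limits inwards, against 85.7 and 21.4.

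Ranked by score per kb instead of score, members with a region in the top 1% of the day-35 list numbered 0 for H3K4me3, 0 for H3K9Ac, 3 for H3K4me2 and 6 for H3K27Ac, against 10 for each, and at day 3 4 for H3K4me1, 2 for H3K4me2, 1 for H3K27Ac, 2 for H4K5Ac and 1 for H3K9Ac. A VDR site within 10 kb with 1,25D3 was at 1 member; an RXR vehicle site was at 8 within 100 kb. Leaving out a library in turn, members with an RXR vehicle site ranged from 4 (without replicate 1) to 8 (without replicate 2). With 1 added to each number and then divided by list length, the hormone difference was -0.219 for VDR and -0.147 for RXR, against 2.00 and 0.596; for VDR the sign comes from the added 1 in short lists with 0 peaks, since the plain share was 0% with vehicle and above 0% with 1,25D3. For density over 8 lists the higher-scoring 50% gave 0.825 and the 5 Mb on each side 0.374, and over the 4 VDR lists these gave 0.145 and 0.333, against -0.256. In 8 lists with 1 left out it ranged from 0.112 to 0.356. The causes were not tested. Pairing libraries of equal number (replicate block, 2 pairs) left the differences at 2.00 for VDR and 0.596 for RXR, with p = 0.5 by exact sign flips, the smallest 2 pairs allow; the labels do not say what a number shares. Depth is unknown, and 1 library per mark and day limits every histone value.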
